A study of Mus musculus with 12 samples.

Results

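The protein subunits of the mitochondrial ribosome that are encoded in the nucleus were followed in murine small intestine during fasting. Members were all probe sets with a single gene symbol that starts with Mrpl or Mrps and a digit. This rule uses names only, and it gave 127 probe sets for 74 genes, out of 12394 genes with a single-symbol probe set on the array. Of the genes, 47 carry large-subunit (Mrpl) and 27 small-subunit (Mrps) symbols, with 88 and 39 probe sets. A mean intensity over 20 in wild-type fed mice, the study's level for an expressed probe set, was reached by 94 of the 127 member probe sets (74.0%), compared with 41.3% of all 22690 probe sets. These 94 covered 73 of the 74 genes, and the tests below run on them. Mrpl55 had no probe set over the level, with a mean of 14.7.

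The mitochondrial ribosome translates the few messages of the mitochondrial genome, which encode core subunits of the respiratory chain and of ATP synthase. Its RNAs come from the mitochondrial genome, but its proteins are made in the cytosol and imported. Some descend from the ribosomal proteins of bacteria and others are found in mitochondria alone, so that the symbol number does not give the role. PPARα is a nuclear receptor that is activated by fatty acids, which rise in plasma during fasting, and it induces genes of fatty acid oxidation.

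The 4 groups were of male mice, 14 weeks of age, and were profiled with 3 arrays per group, 12 in all. Wild-type mice were of strain 129S1/SvImJ and PPARα-null mice of strain 129S4/SvJae, so that genotype and 129 substrain cannot be told apart. In each genotype 1 group had free access to feed and the other had been fasted for 24 h. The animals had been bred in the study's own facility, and the series text names AIN93M as the diet, whereas the methods name a standard chow. RNA was taken from the full-length small intestine after flushing and removal of fat and pancreas, so that it holds epithelium, muscle and immune cells together. In such samples fewer cells of a type and less RNA per cell cannot be told apart. The sources used here do not give whether 1 array stands for 1 mouse or a pool, and the p-values measure the spread between these arrays only. The number of arrays limits the precision.

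Ppara itself, the targeted gene, read from 19.9 to 58.7 on the 6 wild-type arrays and from 6.84 to 13.2 on the 6 PPARα-null arrays. The sample descriptions call the wild-type fasted mice knockouts, whereas their titles and strain call them wild type, and the groups follow the titles. Their 3 arrays read at least 30.8 for Ppara. Intensities of the fed and the fasted arrays follow different distributions and are written with 2 and 9 decimals. Over all 9370 probe sets tested the fasted arrays read lower, the median log2 difference being −0.32. This common shift was taken out of every log2 change upon fasting below, whereas printed intensities are those deposited and include it. Without the removal, each change upon fasting is lower by 0.32. Comparisons between genotypes do not depend on it. Calls needed both a fold above 1.3 and a p below 0.01 before adjustment, and adjusted p-values are Benjamini-Hochberg values of limma over all 9370 probe sets.

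In fed mice no subunit was called between the genotypes. None of the 94 member probe sets was called higher or lower in PPARα-null than in wild-type fed mice, where 0.864% and 1.69% of all probe sets were called. At an unadjusted p under 0.05, 4 member probe sets were higher and 0 lower, and 0 passed an adjusted p of 0.05 in limma. The 4 were probe sets of Mrpl58, a peptidyl-tRNA hydrolase that frees stalled ribosomes, Mrpl15, Mrps30 and Mrps9. The differences over the 94 ran from −0.16 to 0.35 on the log2 scale, with a median of 0.06 against 0.03 for all probe sets. Mean intensities in wild-type fed mice ran from 20.5 to 826, and the median SD was 8.77% of the mean. Levels of different probe sets depend on their probes, and they were not set against each other.

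Upon fasting for 24 h, more subunit probe sets were called lower than higher in wild-type mice, and most were not called. Of the 94 member probe sets, 14 fell and 1 rose, that is 14.9% and 1.06%, where 7.43% and 10.0% of all probe sets were called lower and higher. The median change was −0.07 for members and 0.03 for all probe sets. Of the 94 changes 60 were negative and 34 positive, and 79 probe sets were not called. The members' median log2 intensity minus that of all probe sets tested was −0.17, −0.08 and −0.14 on the wild-type fed arrays. On the wild-type fasted arrays it was −0.14, −0.19 and −0.37, so that only replicate 3 stood well apart. The falls came from 13 genes of both subunits.

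Mrpl19, a large-subunit protein with a bacterial counterpart, had the largest fall in wild-type mice. Its probe set 1450405_at read 83.8, 65.1 and 78.0 on the wild-type fed arrays and 36.2, 30.0 and 29.8 on the wild-type fasted ones. On the PPARα-null arrays it read 72.8, 70.3 and 70.6 when fed and 36.7, 34.4 and 35.0 when fasted. In both genotypes the fasted arrays lay below all fed arrays and there was no overlap. The log2 change was −0.92 ± 0.11 (SE, adjusted p = 1.7e-04) in wild-type and −0.70 ± 0.11 (adjusted p = 1.2e-04) in PPARα-null mice. A second Mrpl19 probe set, 1421914_s_at, had a mean of only 21.4 in wild-type fed mice and changed by 0.05 and −0.04, so the probe sets of this gene disagreed.

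Mrps36 fell in both genotypes. It was named as a small-subunit protein and is now known as Kgd4, a component of the 2-oxoglutarate dehydrogenase complex of the citric acid cycle. Its intensity was 104, 129 and 116 on wild-type fed and 50.7, 55.1 and 48.9 on wild-type fasted arrays. PPARα-null arrays gave 123, 116 and 113 when fed and 42.8, 54.2 and 43.2 when fasted, again without overlap. The changes were −0.85 ± 0.11 and −1.02 ± 0.11, with adjusted p-values of 3.2e-04 and 8.0e-06, and their difference was 0.17 (adjusted p = 0.48).

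Mrps15, homologous to a bacterial small-subunit protein, was called lower by both of its probe sets in both genotypes. Probe set 1456109_a_at read 219, 243 and 238 in wild-type fed and 117, 118 and 79.0 in wild-type fasted mice. In PPARα-null mice it read 263, 255 and 219.7 and 75.4, 93.1 and 84.5. The fasted arrays lay below all fed arrays in each genotype. The change was −0.87 ± 0.14 (adjusted p = 0.0015) in wild-type and −1.23 ± 0.14 (adjusted p = 1.6e-05) in PPARα-null mice, and the other probe set, 1449294_at, gave −0.38 and −0.88.

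The other falls in wild-type mice were smaller. Mrps18a changed by −0.65 and Mrpl54, a mitochondria-specific large-subunit protein, by −0.55. Mrps18a is 1 of 3 genes (Mrps18a, Mrps18b and Mrps18c) that stand for a single bacterial protein, and it sits in the large subunit in spite of its name. Mrps25 changed by −0.52, 1 of the 2 tested probe sets of Mrpl49 by −0.50, Mrpl36 by −0.48, Mrpl11 by −0.47, Mrps14 by −0.46, Mrpl38 by −0.46, 1 of the 2 tested of Mrpl39 by −0.46 and Mrpl34 by −0.39. The calls of Mrpl11, Mrpl19, Mrpl36, Mrps14, Mrps25, Mrps36 and 1 probe set of Mrps15 held with any 1 of the 12 arrays left out, which makes 7 of the 15 calls. The other 8 did not. The call of Mrpl49 ended without wild-type fed replicate 2 or 3 or wild-type fasted replicate 3. That of Mrps18a ended without wild-type fed replicate 2, Mrpl39 without replicate 2 of either wild-type group, and Mrpl34 and Mrpl54 without replicate 3 of either. The call of the second Mrps15 probe set ended in 6 of the 12 omissions and that of Mrpl38 in 9. The rise was a dim probe set of Mrpl15, described further below, and it ended in 4 of the 12 omissions.

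**Figure D1:**
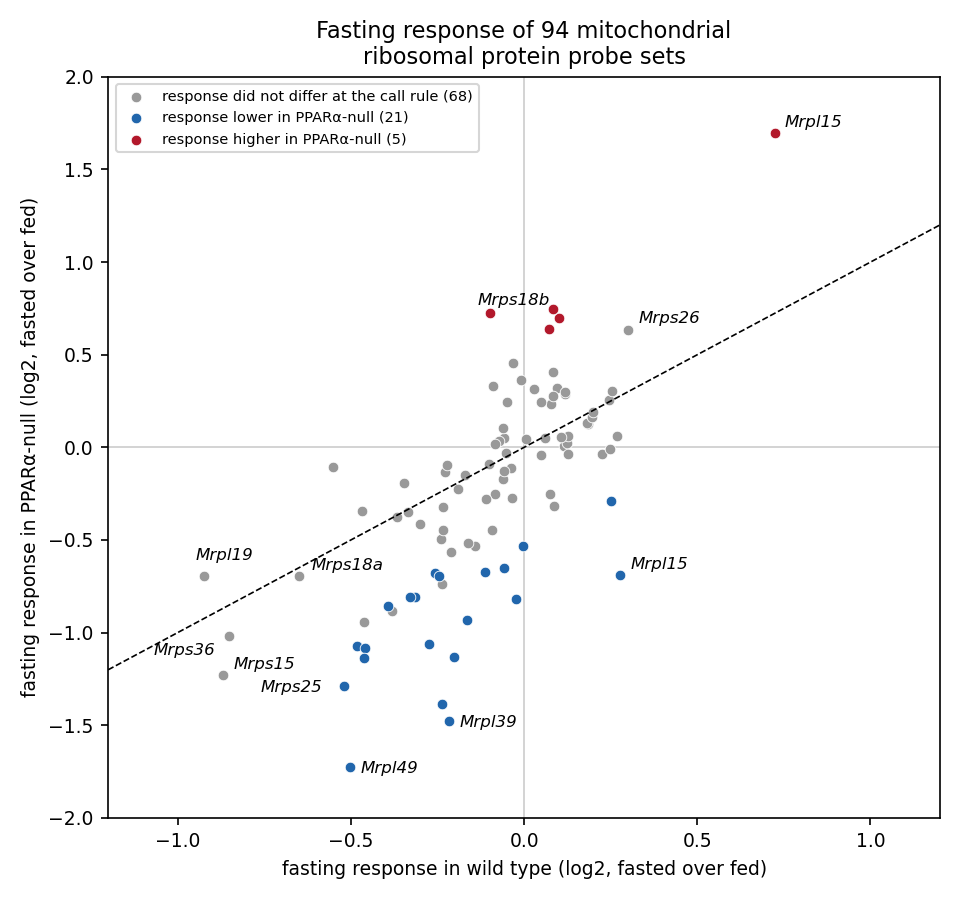
Fasting response of the 94 tested member probe sets, as log2 of fasted over fed relative to the common shift, in wild-type (horizontal axis) and PPARα-null mice (vertical axis). The dashed line marks equal responses. The 21 blue points lie below it by the call rule and the 5 red points above it. Mrpl49 and Mrpl39 lie lowest, near −1.73 and −1.48 in PPARα-null mice.

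In PPARα-null mice more probe sets of the subunits were called upon fasting, most of them lower. Of the 94 member probe sets, 32 fell (34.0%) and 7 rose (7.45%), where 23.6% and 18.6% of all probe sets were called lower and higher. The median change was −0.16 for members and −0.02 for all probe sets, with a range from −1.73 to 1.70. The members' median log2 intensity minus that of all probe sets tested was −0.12, −0.14 and −0.26 on the PPARα-null fed arrays. On the PPARα-null fasted arrays it was −0.21, −0.11 and −0.13, with overlap, so that this measure gave no drop. With any 1 array left out, 36 of the 39 calls held. Those of Mrpl37 (without PPARα-null fed replicate 1), Mrpl47 (without PPARα-null fasted replicate 1) and Mrpl50 (without PPARα-null fed replicate 3 or fasted replicate 1 or 2) did not. Of the 14 member probe sets that fell in wild-type mice, 12 (85.7%) also fell in PPARα-null mice, where they made up 37.5% of the 32. Over all probe sets 74.7% of the wild-type falls were shared, which made up 23.6% of those in PPARα-null mice.

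Mrpl49, a large-subunit protein without a bacterial counterpart, had the largest fall. Probe set 1423219_a_at read 42.5, 48.9 and 43.8 on PPARα-null fed arrays and 10.2, 13.1 and 9.74 on PPARα-null fasted arrays. Wild-type arrays gave 31.2, 38.8 and 43.0 when fed and 22.9, 20.6 and 20.1 when fasted. The PPARα-null fasted arrays lay below every other array and under the level of 20, and the wild-type fasted arrays lay below every fed array. The change was −1.73 ± 0.13 (adjusted p = 5.5e-07) in PPARα-null and −0.50 ± 0.13 (adjusted p = 0.018) in wild-type mice. The second probe set, 1423218_a_at, read 58.8, 68.7 and 62.0 in PPARα-null fed and 17.9, 24.0 and 16.9 in PPARα-null fasted mice. Wild-type mice gave 53.9, 62.8 and 77.4 and 43.3, 49.6 and 38.8 there. It changed by −1.38 ± 0.15 (adjusted p = 1.1e-05) in PPARα-null and by −0.24 ± 0.15 (adjusted p = 0.29) in wild-type mice, so that both probe sets gave the fall in PPARα-null mice and 1 of them was called in wild-type mice.

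Mrpl39, a mitochondria-specific large-subunit protein related in sequence to threonyl-tRNA synthetase, came next. Probe set 1448909_a_at read 273, 285 and 288 in PPARα-null fed and 90.7, 69.8 and 85.3 in PPARα-null fasted mice. In wild-type mice it read 247, 276 and 260.3 and 188, 169 and 185. All 3 PPARα-null fasted arrays lay below the wild-type fasted arrays, which in turn lay below all fed arrays. The change was −1.48 ± 0.10 (adjusted p = 2.1e-07) in PPARα-null and −0.22 ± 0.10 (adjusted p = 0.14) in wild-type mice. The other probe set of Mrpl39, 1417966_at, changed by −1.09 and −0.46.

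Small-subunit proteins fell as well. Mrps25, a mitochondria-specific protein, read 42.4, 50.6 and 44.9 in PPARα-null fed and 15.8, 14.2 and 15.2 in PPARα-null fasted mice, compared with 39.3, 44.0 and 45.2 and 25.2, 27.1 and 20.2 in wild-type mice. The 4 groups followed the order PPARα-null fasted, wild-type fasted and then both fed groups, which overlapped. Its change in PPARα-null mice was −1.29 ± 0.11 (adjusted p = 1.7e-06). Mrps14, with a bacterial counterpart, read 391, 395 and 354 and 131, 144 and 142 in PPARα-null fed and fasted mice and 318, 408 and 394 and 222, 231 and 198 in wild-type mice, and fell by 1.14 on the log2 scale in the former (adjusted p = 2.6e-06). The bacterial-type proteins Mrps6 and Mrps21 changed by −1.06 and −0.93 in PPARα-null mice. The changes there were −1.07 for Mrpl36, −0.94 for Mrpl38, −0.86 for Mrpl34 and −0.70 for Mrps18a. In all, 26 genes had a probe set that fell in PPARα-null mice. Beside those named they were Mrpl14, Mrpl15, Mrpl18, Mrpl21, Mrpl37, Mrpl42, Mrpl43, Mrpl47, Mrpl51, Mrps12, Mrps22, Mrps31 and Mrps33.

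**Figure D2:**
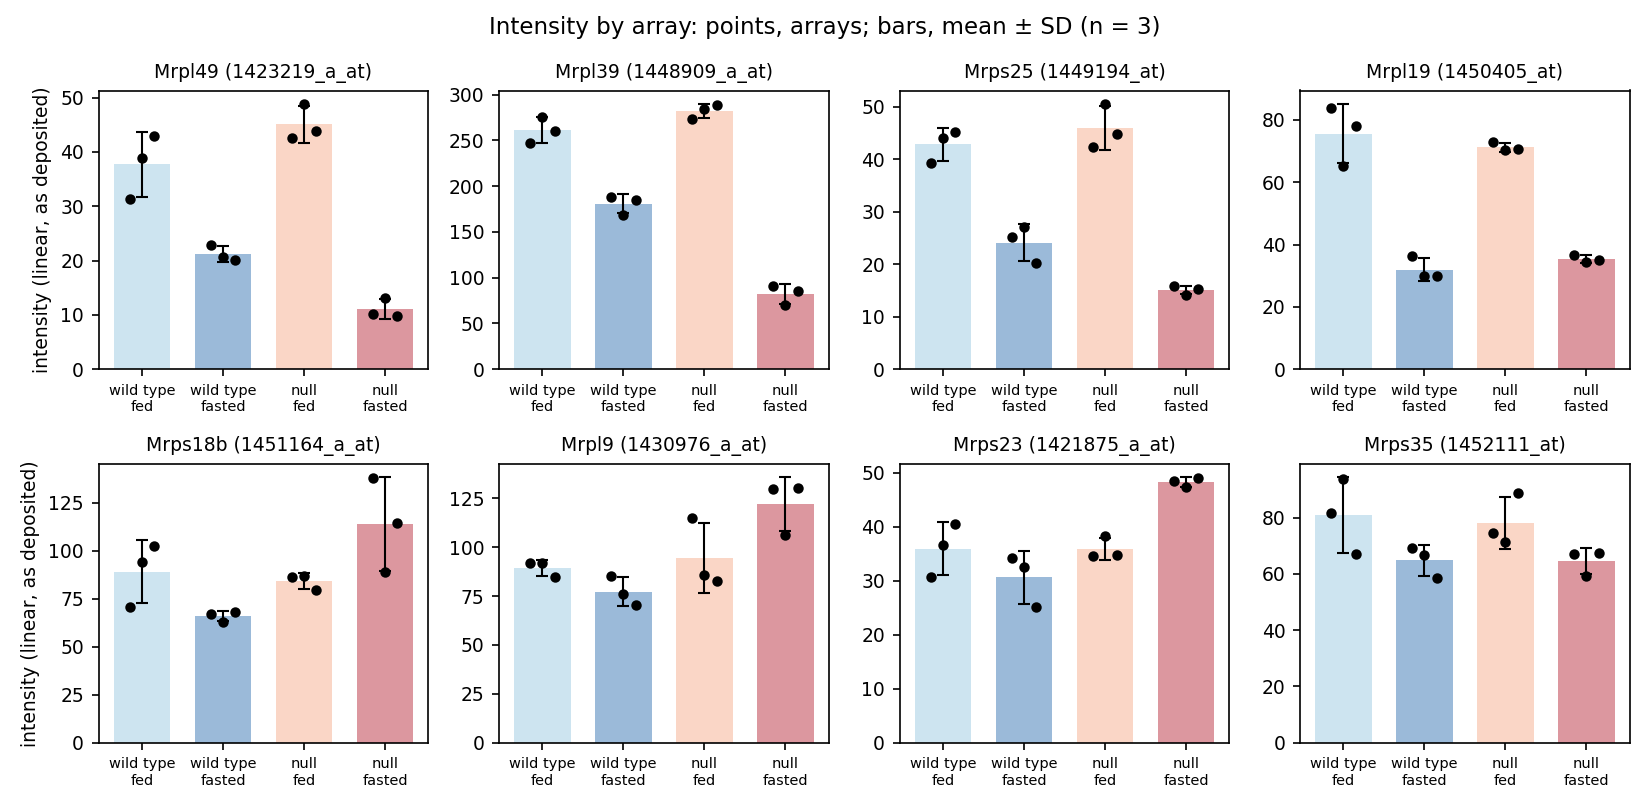
Deposited intensities on a linear scale for 8 member probe sets, by group. Points are the 12 arrays, and bars and whiskers give mean ± SD (n = 3). In the upper row Mrpl49, Mrpl39 and Mrps25 are lowest in PPARα-null fasted mice, and Mrpl19 is low in both fasted groups. In the lower row Mrps18b, Mrpl9 and Mrps23 are highest in PPARα-null fasted mice, whereas Mrps35 changed by 0.01 and 0.04 on the log2 scale beyond the common shift.

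A few subunits went the other way in PPARα-null mice. Probe sets of 6 genes rose upon fasting, namely Mrpl9, Mrpl50, Mrps18b, Mrps23, Mrps26 and the dim Mrpl15 probe set. Mrps18b, the small-subunit relative of Mrps18a, read 86.4, 87.0 and 79.7 in PPARα-null fed and 138, 88.8 and 115 in PPARα-null fasted mice. In wild-type mice it read 70.7, 94.1 and 102 and 66.9, 62.9 and 68.2. The PPARα-null fasted arrays lay over every wild-type fasted array, and their spread was the widest of the 4 groups. The change was 0.73 ± 0.16 (adjusted p = 0.0016) in PPARα-null and −0.10 ± 0.16 (adjusted p = 0.67) in wild-type mice.

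Mrpl9, which has a bacterial counterpart, rose by both of its probe sets. Probe set 1430976_a_at read 115, 85.8 and 82.5 in PPARα-null fed and 129.8, 106 and 130.2 in PPARα-null fasted mice, against 91.8, 91.8 and 84.7 and 85.5, 75.9 and 70.5 in wild-type mice. The fed and fasted PPARα-null arrays overlapped before the shift was removed, and the 2 fasted groups did not overlap. The changes in PPARα-null mice were 0.70 ± 0.13 (adjusted p = 6.3e-04) and, for 1427297_at, 0.64 ± 0.13 (adjusted p = 0.0012). Mrps23, mitochondria-specific, read 34.5, 38.3 and 34.8 in PPARα-null fed and 48.4, 47.3 and 49.1 in PPARα-null fasted mice by probe set 1421875_a_at. Wild-type mice gave 30.7, 36.6 and 40.5 and 34.2, 32.6 and 25.1, and the PPARα-null fasted arrays lay over all 9 others. It rose by 0.74 on the log2 scale (adjusted p = 2.7e-04), and its second probe set gave 0.41 and was not called. Mrps26 rose by 0.64 and 1 of the 2 tested probe sets of Mrpl50 by 0.46. As deposited, with the common shift left in, all 7 stayed positive but the calls of Mrps18b, Mrps26, Mrpl50 and both Mrpl9 probe sets were lost.

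Wild-type and PPARα-null mice were compared directly in the fasted state, where no shift enters. Of the 94 member probe sets, 20 were lower (21.3%) and 9 higher (9.57%) in PPARα-null mice, close to the 17.6% and 11.6% of all probe sets. The median difference was −0.02, and −0.03 for all probe sets. Members went both ways in this comparison. The largest difference was in Mrpl49, 2.25-fold and 1.94-fold lower by its 2 tested probe sets (adjusted p = 8.9e-05 and 1.4e-04), and Mrpl39 was 2.22-fold lower by 1448909_a_at (adjusted p = 3.8e-06). On the higher side the largest was the dim Mrpl15 probe set with 2.13-fold (adjusted p = 0.0021), followed by Mrps18b with 1.70-fold (adjusted p = 0.002), Mrpl9 with 1.61-fold and 1.58-fold (adjusted p = 0.0012 and 0.0017) and Mrps23 with 1.59-fold (adjusted p = 0.0011). Each of these 8 calls held with any 1 array left out, as did 21 of the 29 in all. In all 15 genes were lower and 8 higher, Mrpl15 being counted in both.

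**Figure D3:**
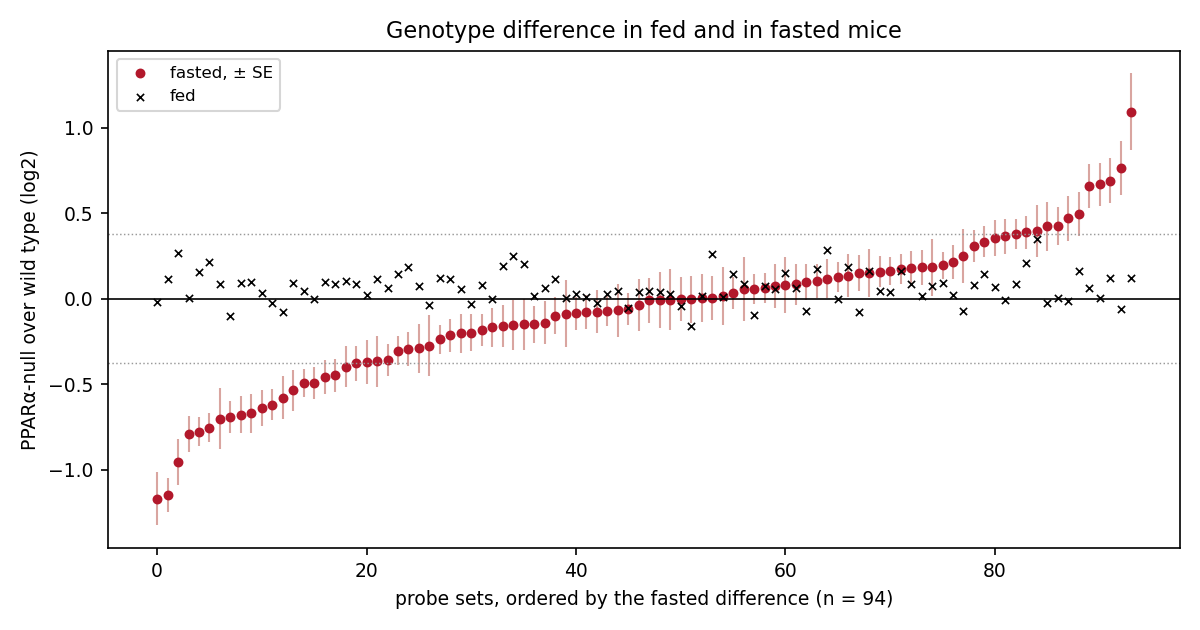
Difference between PPARα-null and wild-type mice on the log2 scale for the 94 tested member probe sets, ordered by the difference in fasted mice (red points with SE). Crosses give the difference of the same probe sets in fed mice, and dotted lines mark a fold of 1.3. In fed mice all values lie between −0.16 and 0.35, whereas in fasted mice they run from −1.17 to 1.09.

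To test whether the fasting responses differed between genotypes, the difference of both responses (wild-type minus PPARα-null) was tested for each probe set. It was called for 26 of the 94 member probe sets, 21 positive (22.3%) and 5 negative (5.32%), where 14.1% and 7.64% of all probe sets were. All 26 also had an adjusted p under 0.05. A positive value means that the signal fell further, or rose less, in PPARα-null mice. Mrpl39 had the largest, 1.26 ± 0.14 (adjusted p = 8.6e-05), followed by both probe sets of Mrpl49 with 1.22 ± 0.19 and 1.15 ± 0.22. Negative values were found for Mrps18b (−0.83), Mrps23 (−0.66), both probe sets of Mrpl9 (−0.59 and −0.57) and the dim Mrpl15 probe set. Mrpl19, Mrps15, Mrps18a and Mrps36, which had the 4 largest falls in wild-type mice, were not among the 26, and their differences were −0.23 for Mrpl19, 0.36 and 0.50 for the probe sets 1456109_a_at and 1449294_at of Mrps15, 0.05 for Mrps18a and 0.17 for Mrps36. Without wild-type fasted replicate 3 that of 1456109_a_at was 0.55 and was called. Leaving out any 1 array kept 18 of the 26 calls. The calls of both Mrpl9 probe sets, of Mrpl34 and of the dim Mrpl15 probe set were each lost in 8 of the 12 omissions, those of Mrpl51 and Mrps6 in 7, that of Mrps22 in 5 and that of Mrps31 without PPARα-null fasted replicate 3.

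**Figure D4:**
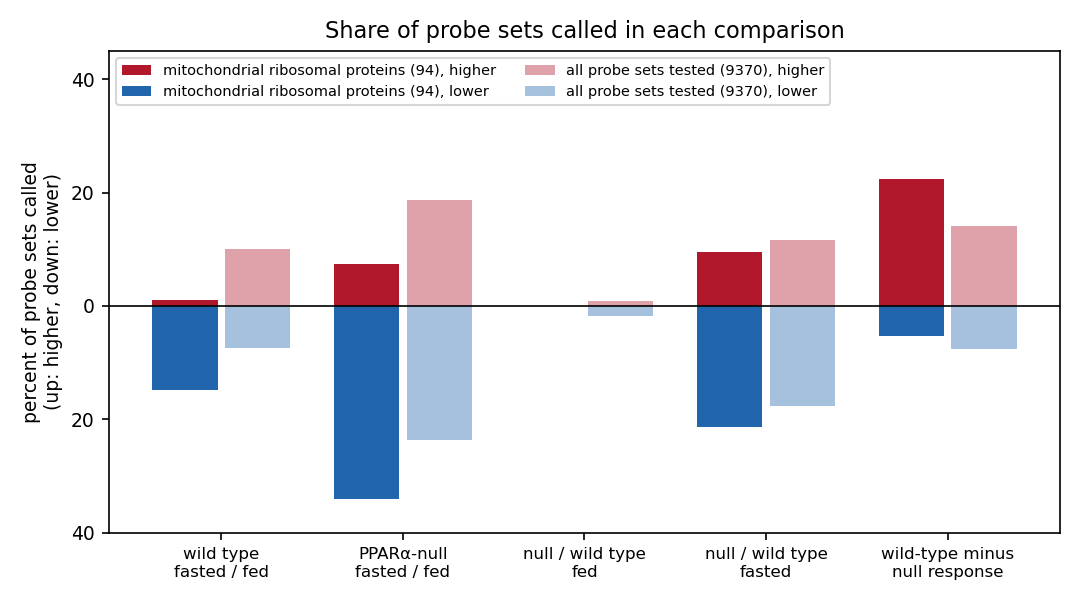
Percent of probe sets called higher (upward, red) or lower (downward, blue) in the 5 comparisons, for the 94 member probe sets (dark bars) and for all 9370 probe sets tested (light bars). The dark downward bars are longer than the light ones in the fasting responses of both genotypes, 14.9% against 7.43% and 34.0% against 23.6%. No member was called in fed mice.

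The genes with the largest differences between the fasted groups are shown with the 250 bases before their annotated start, since promoters of genes for the mitochondrial ribosome are known for sites of NRF-1, of ETS factors such as GABP, and of YY1. For Mrpl49 and Mrpl39, the lowest in PPARα-null fasted mice, and for Mrps18b and Mrpl9, the highest among genes called in 1 direction only, the RefSeq sequences of build GRCm38.p6 are given 5′ to 3′ on the strand of the gene. Capitals mark matches on either strand to GCGCANGCG (NRF-1), CCGGAAG (ETS) or AAGATGG (YY1), and overlapping matches run together.
Mrpl49, chr19:6057756-6058005, minus strand: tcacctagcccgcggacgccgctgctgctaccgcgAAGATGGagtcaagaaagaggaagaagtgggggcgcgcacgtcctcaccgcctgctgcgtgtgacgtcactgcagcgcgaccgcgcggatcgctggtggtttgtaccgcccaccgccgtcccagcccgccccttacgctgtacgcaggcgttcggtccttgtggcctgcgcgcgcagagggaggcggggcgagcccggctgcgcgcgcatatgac
Mrpl39, chr16:84735245-84735494, minus strand: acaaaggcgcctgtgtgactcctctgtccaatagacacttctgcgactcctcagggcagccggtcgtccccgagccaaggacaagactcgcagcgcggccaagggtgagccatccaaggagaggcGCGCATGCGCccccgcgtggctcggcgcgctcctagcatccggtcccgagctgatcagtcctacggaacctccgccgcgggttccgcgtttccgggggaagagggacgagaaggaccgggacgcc
Mrps18b, chr17:35916441-35916690, minus strand: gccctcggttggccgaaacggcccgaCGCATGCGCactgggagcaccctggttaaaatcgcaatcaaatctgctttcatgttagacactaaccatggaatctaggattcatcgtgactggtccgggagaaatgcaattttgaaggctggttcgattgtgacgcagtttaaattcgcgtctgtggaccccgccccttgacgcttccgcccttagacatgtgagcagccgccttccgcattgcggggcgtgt
Mrpl9, chr3:94443086-94443335, plus strand: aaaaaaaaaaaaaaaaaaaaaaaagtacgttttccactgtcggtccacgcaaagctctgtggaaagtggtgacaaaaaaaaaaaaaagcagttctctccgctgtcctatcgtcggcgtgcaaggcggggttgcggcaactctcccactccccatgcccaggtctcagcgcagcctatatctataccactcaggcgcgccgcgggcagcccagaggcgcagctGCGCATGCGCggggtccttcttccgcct
In these 250 bases Mrpl49 held a YY1 match. Mrpl39, which was lower in PPARα-null fasted mice, and Mrps18b and Mrpl9, which were higher, all held the NRF-1 letters.

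Windows of 300 bases, 250 before to 50 after the start, could be matched by symbol for 65 of the 74 member genes. The NRF-1 letters were found in 23.1% of these windows, the ETS letters in 35.4% and the YY1 letters in 18.5%, compared with 6.47%, 9.12% and 6.48% of the windows of all 27025 genes in the table. At least 1 of the 3 was in 61.5% of member windows and in 19.7% of all. Among members lower in PPARα-null fasted mice 9 of 14 held at least 1, among those higher 4 of 7, and among the tested members that were not called 27 of 43. A match is a description of letters, and no binding was measured.

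Mrpl15, a large-subunit protein with a bacterial counterpart, was read by 5 probe sets over the level, and they disagreed. The first 4, 1425189_a_at, 1434970_a_at, 1434971_x_at and 1435232_x_at, were lower in PPARα-null fasted mice than in any other group without overlap. The first read 345, 372 and 352 in PPARα-null fed and 178, 160.3 and 149 in PPARα-null fasted mice, against 385, 371 and 312 and 304, 256 and 283 in wild-type mice. The 4 changes in PPARα-null mice were −0.82, −0.65, −1.13 and −0.69, and in wild-type mice −0.02, −0.06, −0.20 and 0.28, none of the latter being called. The fifth, 1430798_x_at, was dim and went up. It read 23.9, 23.1 and 17.3 in wild-type fed, 39.0, 22.2 and 25.8 in wild-type fasted, 24.7, 17.7 and 28.0 in PPARα-null fed and 49.8, 73.1 and 59.5 in PPARα-null fasted mice. Only the PPARα-null fasted arrays were clear of all others. Its change was 1.70 ± 0.22 (adjusted p = 4.3e-05) in PPARα-null and 0.72 ± 0.22 (adjusted p = 0.035) in wild-type mice. The ending _x_at marks probes that may bind other transcripts, and whether this one measures Mrpl15 was not tested.

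**Figure D5:**
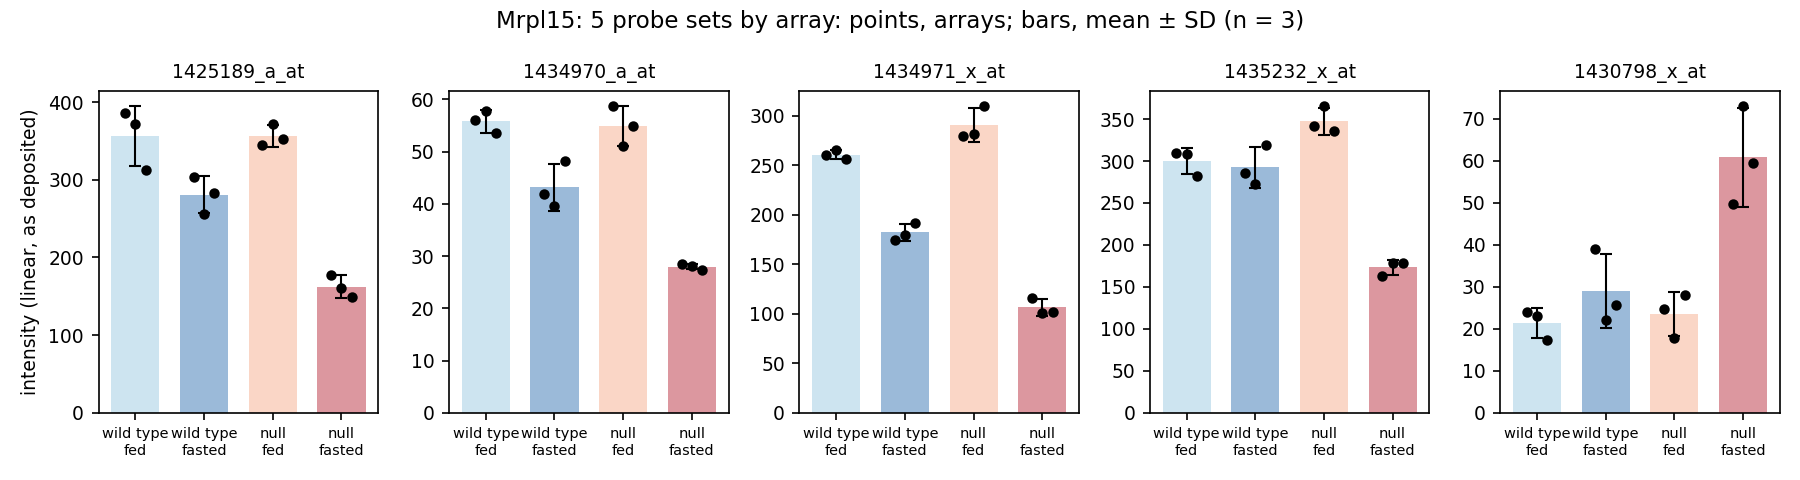
Deposited intensities on a linear scale of the 5 Mrpl15 probe sets over the level, by group. Points are arrays, and bars and whiskers give mean ± SD (n = 3). The first 4 panels are lowest in PPARα-null fasted mice, and the fifth, with means of 21.4 to 60.8, is highest there.

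Of the 73 genes tested, 16 had at least 2 probe sets over the level. Beside Mrpl15, probe sets differed in sign where at least 1 was called for Mrpl11, Mrpl19 and Mrpl50. Upon fasting in PPARα-null mice 4 of the 16 had all of their probe sets called the same way. These were Mrpl9, Mrpl39, Mrpl49 and Mrps15, which include the genes with the largest falls.

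Falls were found among genes of both symbols. In PPARα-null mice 20 of 63 probe sets with an Mrpl symbol fell and 4 rose, that is 31.7% and 6.35%, and 12 of 31 with an Mrps symbol fell and 3 rose, that is 38.7% and 9.68%. Over all probe sets 23.6% were lower and 18.6% higher. In wild-type mice the falls and rises were 8 and 1 of 63, and 6 and 0 of 31, with 7.43% lower and 10.0% higher over all probe sets. The symbol is not the subunit for every gene, since Mrps18a and Mrps36, which fell in both genotypes, are counted under Mrps. These are counts of probe sets, and they were not tested against each other.

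The stalk, which recruits translation factors, gave 1 call among 4 probe sets. Mrpl12 read 367, 436 and 432 in wild-type fed and 363, 377 and 334 in wild-type fasted mice, with overlap, and changed by 0.12 there and by 0.01 in PPARα-null mice. Mrpl10 changed by 0.08 and 0.24, and neither gene was called. Mrpl11, at its base, fell in wild-type mice by probe set 1417918_at. It read 179.6, 199 and 187 when fed and 116, 105 and 108 when fasted there, without overlap, and 206, 191 and 184 and 116, 126 and 126 in PPARα-null mice. The change was −0.47 (adjusted p = 0.0019) and −0.34 (adjusted p = 0.0034), the latter under the fold of 1.3. Its dimmer probe set gave 0.05 and 0.24. Around the exit tunnel, where new chains leave the ribosome, Mrpl22, Mrpl23, Mrpl24, Mrpl44, Mrpl45 and Mrpl47 gave no fasting call in wild-type mice. In PPARα-null mice they gave 1 fall upon fasting, −0.45 for Mrpl47. Over all probe sets 7.43% fell and 10.0% rose in wild-type mice, and 23.6% and 18.6% in PPARα-null mice. Mrpl24 was called lower in PPARα-null than in wild-type fasted mice (−0.49), and its difference of responses was called (0.54). Mrpl45, which anchors the ribosome to the inner membrane, changed by −0.30 and −0.41.

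Of the 73 genes, 40 were not called upon fasting in either genotype, and 37 were called in none of the 5 comparisons. By probe set, 79 of the 94 members were not called in wild-type mice, compared with 7734 of all 9370. In PPARα-null mice 55 of the 94 were not called, compared with 5415 of all 9370, a similar share. The least changed over both genotypes were Mrps35, Mrps28, Mrps18c, Mrpl4, Mrpl40 and a dim probe set of Mrpl19. Mrps35, a mitochondria-specific small-subunit protein, read 81.7, 93.9 and 66.9 in wild-type fed and 69.2, 66.6 and 58.5 in wild-type fasted mice. In PPARα-null mice it read 74.6, 71.3 and 88.7 and 66.9, 59.1 and 67.6. The groups overlapped in wild-type mice, and the changes were 0.01 ± 0.13 and 0.04 ± 0.13. A miss of the threshold does not show that a level stayed the same, and a typical SE of a change was 0.11 on the log2 scale. The 33 member probe sets under the level had means from 3.17 to 19.3 in wild-type fed mice, and only 2 of them (of Mrpl28 and Mrps2) exceeded 20 in another group, the highest mean being 21.1.

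Genes of proteins that work with the mitochondrial ribosome were also called upon fasting, in both genotypes. Shares of calls over all probe sets, against which the counts stand, were 10.0% higher and 7.43% lower in wild-type and 18.6% and 23.6% in PPARα-null mice. Of 4 further subunits that do not carry an Mrp symbol, none was called in wild-type mice, and Chchd1 (−0.67) and Ptcd3 (−0.81) fell in PPARα-null mice. Of 9 probe sets for translation factors and related proteins, 3 fell and 1 rose in wild-type mice and 6 fell in PPARα-null mice. Gfm2, which splits the ribosome after termination, changed by −0.20 in wild-type and −1.29 in PPARα-null mice (adjusted p = 3.9e-05 in the latter), and the difference between responses was called (adjusted p = 0.0064). Pdf, the peptide deformylase of mitochondria, fell by 0.64 and 1.23, and Tufm, the elongation factor that delivers aminoacyl-tRNA, by 0.62 and 0.73. Oxa1l, which inserts new chains into the inner membrane, rose by 0.41 in wild-type mice. Its deposited means there were 20.1 when fed and 21.4 when fasted, close to the level of 20. The call of Oxa1l thus rests largely on the removal of the common shift.

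Assembly factors of the ribosome went both ways. Of their 17 probe sets, 1 rose and 0 fell in wild-type mice (5.88% and 0%), and 2 rose and 6 fell in PPARα-null mice (11.8% and 35.3%). Nsun4, a methyltransferase of the ribosomal RNA that is needed to join the subunits, changed by −0.20 and 0.27 in wild-type and by −1.51 and −0.73 in PPARα-null mice. Both probe sets were called for a difference of responses (adjusted p = 0.0059 and 0.0041). Ngrn, which also acts on the ribosomal RNA, changed by 0.03 and −0.91. Of 7 probe sets for mitochondrial tRNA synthetases and related enzymes, 2 rose and 0 fell in wild-type mice and 2 rose and 2 fell in PPARα-null mice. The rises were Iars2 (0.53 and 1.07) and Gars (0.70 and 0.66), and the enzyme made from Gars also serves the cytosol.

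Of 8 probe sets for transcription and copying of mitochondrial DNA, 2 rose and 0 fell in wild-type mice, and 2 rose and 3 fell in PPARα-null mice. Tfam, which packages mitochondrial DNA and starts its transcription, rose by 0.44 in wild-type mice and changed by 0.20 in PPARα-null mice, and Mterf2, a protein of the family of mitochondrial transcription termination factors, changed by −0.19 and −0.75. Of 14 probe sets for regulators of mitochondrial biogenesis, 2 rose and 1 fell in wild-type mice, and 2 rose and 6 fell in PPARα-null mice. Ppara was among the rises in each genotype, though its PPARα-null means of 7.23 and 11.9 lay under the level of 20. Myc, a transcription factor that promotes growth, had the largest difference of responses in this list, and the difference was called (adjusted p = 0.0015). It changed by 0.60 in wild-type and −0.91 in PPARα-null mice. Its means were near or under the level of 20, with 24.6 and 29.4 in wild-type fed and fasted mice. In PPARα-null mice they were 23.6 when fed and 10.0 when fasted. Ppargc1a, a coactivator that drives mitochondrial biogenesis, was called lower in PPARα-null mice by 3 of its 4 probe sets, with −1.54, −1.03 and −0.90. None was called in wild-type mice, where these gave −0.51, 0.36 and 0.38. The fourth changed by 0.11 and 0.06.

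Cytosolic ribosomal proteins and the respiratory chain were set beside the members. Over all probe sets 10.0% rose and 7.43% fell in wild-type mice, and 18.6% and 23.6% in PPARα-null mice. Of 80 probe sets of cytosolic ribosomal proteins, 10 rose and 1 fell in wild-type mice, with a median of 0.25, and 5 rose and 6 fell in PPARα-null mice, with a median of 0.18. Rises made up 12.5% of the 80 in wild-type and 6.25% in PPARα-null mice, and falls 1.25% and 7.50%. Members had medians of −0.07 and −0.16. Of 125 probe sets of the nuclear-encoded respiratory chain, whose partners the mitochondrial ribosome makes, 1 rose and 9 fell in wild-type mice and 0 rose and 20 fell in PPARα-null mice, with medians of −0.09 and −0.08. In the fasted state 2 of the 125 were lower in PPARα-null mice and 0 higher, that is 1.60% and 0%. Of the 94 member probe sets 20 were lower and 9 higher, that is 21.3% and 9.57%. These member shares are close to the 17.6% and 11.6% of all probe sets. These counts describe the lists, and they were not tested against each other.

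Signals of other cells moved with the groups. Markers of exocrine pancreas had a mean log2 intensity of 3.78 to 5.75 in wild-type fed, 8.69 to 9.68 in wild-type fasted and 3.74 to 4.76 in PPARα-null fed mice. In PPARα-null fasted mice replicate 2 had 3.90, as low as a fed array, and the other 2 had 10.0 and 10.1. All 14 tested pancreas probe sets rose upon fasting in wild-type mice and 9 of 14 in PPARα-null mice. Over all probe sets 10.0% and 18.6% rose. On the array with the low pancreas signal Mrpl39 (1448909_a_at) read 69.8, the lowest of the group, whereas Mrpl49 read 13.1 (1423219_a_at) and 24.0 (1423218_a_at), the highest of the group. With replicates 1 and 3 left out, this array alone stood for PPARα-null fasted mice and was assumed to vary like the other groups, which gave the spread. All 39 values of members called in PPARα-null mice then kept their sign, as did the 29 called between fasted groups. This array was among those that gave the calls, so a kept sign is largely fixed in advance and is no independent check. The fall of Mrpl39 (1448909_a_at) was then −1.71, and those of Mrpl49 were −1.48 (1423219_a_at) and −1.09 (1423218_a_at). The difference of responses for Mrpl49 was 0.96 and 0.84, in the same order. The rise in PPARα-null mice was 0.38 for Mrps18b and 0.49 and 0.55 for Mrpl9, none of which passed the rule. Between fasted groups Mrps18b differed by 0.43 and Mrpl9 by 0.46 (1430976_a_at), which did not pass, and by 0.61 (1427297_at), which did.

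With the pancreas signal as a covariate, 7 of the 15 member calls in wild-type mice held, where all 3 fasted arrays had the signal. Of those lost, Mrpl49 changed from −0.50 to −0.16, Mrps18a from −0.65 to −0.38, Mrps14 from −0.46 to −0.34 and Mrps15 (1449294_at) from −0.38 to −0.28. The others kept about their size, with −0.49 for Mrpl39 (1417966_at), −0.50 for Mrpl38, −0.46 for Mrpl54 and 0.89 for the dim Mrpl15 probe set. In PPARα-null mice 34 of 39 calls held, between fasted groups 28 of 29 and for the difference of responses 23 of 26. Those lost in PPARα-null mice were Mrpl37, Mrpl43, Mrpl47, Mrps18a and Mrps18b. In wild-type mice the signal parted all fed from all fasted arrays, so that it can hardly be told apart from fasting there. The fitted slope rests largely on PPARα-null fasted replicate 2, the array of its group with a low signal. The part of pancreas in the members' changes was not tested.

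Markers of some other cell types, though not of all, fell as well upon fasting. Over all probe sets 10.0% were called higher and 7.43% lower in wild-type mice, and 18.6% and 23.6% in PPARα-null mice. Mean log2 intensity of the list for dividing crypt cells was 5.26 to 5.51 in PPARα-null fasted, 5.71 to 5.87 in wild-type fasted and 6.09 to 6.35 in fed mice, and 4 of its 5 tested probe sets fell upon fasting in PPARα-null mice but 0 in wild-type mice. The leukocyte list was at 5.36 to 5.57 in wild-type fed, 5.19 to 5.22 in PPARα-null fed, 4.68 to 4.90 in wild-type fasted and 4.11 to 4.47 in PPARα-null fasted mice, so that the genotypes did not overlap in either state. Of its 4 tested probe sets, 2 fell in wild-type and 3 in PPARα-null mice. Smooth muscle markers were at 7.23 to 7.50 in wild-type fed and 6.19 to 6.94 in wild-type fasted mice, where 4 of 6 tested probe sets fell. In PPARα-null mice they were at 7.08 to 7.22 and 6.74 to 6.91, and 0 of 6 fell. Goblet cell markers were at 10.6 to 10.8 in fed and 10.0 to 10.3 in fasted mice, and 3 of 6 tested probe sets fell in each genotype. Enterocyte markers were at 11.8 to 12.2 on all arrays. Of their 10 tested probe sets 2 were called higher upon fasting in PPARα-null mice, and 0 were called lower in either genotype. Paneth cell markers were at 9.51 to 9.96 on all arrays. Of their 5 tested probe sets 1 rose and 0 fell in each genotype, with median changes of 0.21 in wild-type and 0.27 in PPARα-null mice. Adipocyte markers had no probe set over the level. The part of these cell types in the members' changes was not tested.

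Ratios of 3′ to 5′ signal, a sign of RNA integrity, moved with fasting too. For actin the ratio was 1.57 to 1.71 in wild-type fed and 1.77 to 1.89 in wild-type fasted mice, without overlap, and 1.60 to 1.74 and 1.68 to 1.77 in PPARα-null mice, with overlap. For Gapdh it was 1.10 to 1.18 and 1.22 to 1.25 in wild-type and 1.14 to 1.15 and 1.18 to 1.26 in PPARα-null mice, without overlap in either genotype. The part of RNA integrity in the members' changes was not tested.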

How the data were processed

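Members and gene lists were chosen with earlier results of these data known. The study hybridized RNA of the 12 samples to Affymetrix MOE430A arrays, and per the labels the authors background-corrected, normalized and summarized the probe intensities with GCRMA (version 2.20). The deposited intensity values are on a linear scale, in 1 table. All 12 columns were mapped by their titles.

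Intensities were log2-transformed and a model with 4 group means was fitted to all 22690 probe sets with limma 3.58.1 (lmFit and eBayes, R 4.3.3). Samples were grouped by genotype and feeding state, in 4 pairwise contrasts and the difference of both fasting responses. The median log2 difference between fasted and fed arrays over the 9370 probe sets whose wild-type fed mean exceeded 20 (−0.32; −0.28 in wild-type and −0.33 in PPARα-null mice alone) was removed from both fasting contrasts, and it cannot be told apart from a change of most genes. Calls required a fold above 1.3 and a p below 0.01 before adjustment, and Benjamini-Hochberg adjustment ran over the 9370. Symbols came from the platform annotation, in which 20393 probe sets have 1 symbol, 691 several and 1606 none, and the latter 2 kinds were left out. Named are the members with the largest called changes in each contrast, those of fixed structural groups and those that changed least. Alternatives covered normalization, shift, level, variance, probe set choice, the pancreas signal, a replicate block and omission of arrays. The pipeline was tested on simulated data. Promoter letters were searched in RefSeq windows (GRCm38.p6) with Python 3.11.15, on both strands. Deviations of samples with the same replicate number had correlations from −0.15 to 0.22, with 5 of 18 over 0.1. Those with different numbers had −0.28 to 0.22, with 7 of 36 over 0.1. No clear pairing was seen, and the numbers were not used as pairs.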

Additional observations from a re-analysis of the deposited data

Results flagged for a closer look

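The fasting response differed between genotypes, by a test of the difference itself, for 26 of the 94 member probe sets tested, where 14.1% of all probe sets were called positive and 7.64% negative. Values are the wild-type minus the PPARα-null response on the log2 scale, with 3 arrays per group. In the large subunit they were 1.26 and 0.63 for Mrpl39, 1.22 and 1.15 for Mrpl49, and 0.97, 0.93, 0.80 and 0.60 for 4 probe sets of Mrpl15. Further values were 0.59 for Mrpl36, 0.56 for Mrpl18, 0.54 for Mrpl24, 0.53 for Mrpl14, 0.49 for Mrpl42, 0.47 for Mrpl34 and 0.42 for Mrpl51. In the small subunit they were 0.79 for Mrps6, 0.77 for Mrps21, 0.77 for Mrps25, 0.67 for Mrps14, 0.48 for Mrps22 and 0.45 for Mrps31. All of these had a lower response in PPARα-null mice.

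The opposite sign was found for 5 probe sets, with −0.57 and −0.59 for Mrpl9, −0.66 for Mrps23, −0.83 for Mrps18b and −0.97 for the dim Mrpl15 probe set. With only the PPARα-null fasted array of low pancreas signal kept in its group, all 26 values kept their sign. That array was among those that gave the calls, so a kept sign is largely fixed in advance. The 5 negative values were then −0.50 and −0.40 for Mrpl9, −0.63 for Mrps23, −0.49 for Mrps18b and −1.26 for the dim Mrpl15 probe set. Genotype and 129 substrain cannot be told apart in any of the 26.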

How the results depend on the processing

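The median change of the 94 member probe sets stayed negative upon fasting in both genotypes under every alternative run. As deposited, with the common shift left in, 0 member probe sets were higher and 41 lower in wild-type mice (median −0.38), and 2 were higher and 50 lower in PPARα-null mice (median −0.48), while 31.7% and 43.4% of all probe sets were then called lower. The count higher in wild-type mice was 0 with quantile normalization, with 1 probe set per gene, without _s_at and _x_at probe sets and with a replicate block, and 2 without a filter on level. The count higher in PPARα-null mice was 11 with arrays centred on their medians and 11 without a filter on level, where the median was −0.037, and 4 with 1 probe set per gene. With a level over 100, 0 were higher and 7 lower in wild-type, 1 higher and 19 lower in PPARα-null mice, and 3 higher and 12 lower between fasted groups. With an own shift per genotype 14 were higher between fasted groups. Negative differences of responses, 5 in the reported fit, numbered 8 after centring, 0 at a level over 100, 3 with the filter before eBayes, 2 with 1 probe set per gene, 3 with a replicate block and 3 with the pancreas signal as covariate. With that covariate 2 were higher and 8 lower in wild-type mice. Without PPARα-null fasted replicates 1 and 3, a fit whose spread comes from the other groups, 3 were higher in PPARα-null mice and 1 difference was negative. With a replicate block 13 fell in wild-type and 33 in PPARα-null mice.

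Leaving out 1 array at a time, medians ran from −0.10 to −0.04 in wild-type and from −0.21 to −0.13 in PPARα-null mice, from 0.03 to 0.09 between fed groups, from −0.10 to 0.02 between fasted groups and from 0.03 to 0.16 for the difference of responses. In wild-type mice 0 to 1 were then higher and 9 to 14 lower, and in PPARα-null mice 7 to 9 and 31 to 34. Between fed groups 0 to 1 were higher and 0 lower, between fasted groups 6 to 10 and 17 to 22, and positive and negative differences of responses numbered 17 to 23 and 2 to 5. The median between fasted groups thus has no stable sign. The cause of these changes was not tested. With 3 arrays per group and a median SE of 0.11, changes near the fold of 1.3 are at the limit of what could be called, and dim probe sets such as that of Mrpl15 lie close to the background.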

Other observations

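Probe sets that carry another symbol beside that of a mitochondrial ribosomal protein were outside the rule. The probe set 1451178_at, shared by Ccdc142 and Mrpl53, read 101.0 ± 9.91 in wild-type fed, 126 ± 7.46 in wild-type fasted, 112 ± 1.62 in PPARα-null fed and 133 ± 7.49 in PPARα-null fasted mice (mean ± SD, n = 3). It rose relative to the common shift, by 0.63 and 0.57 on the log2 scale (limma, adjusted p = 6.2e-04 and 1.9e-04). The probe set 1423857_at, shared by Gm6238 and Mrpl30, had means of 558, 509, 602 and 519 in the same order and was not called (0.19 and 0.11). The probe set 1448905_at, shared by Nme3 and Mrps34, was under the level, with a mean of 14.4 in wild-type fed mice.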
